A study of Mus musculus with 10 samples.

Results

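The hippocampus is built of fields that can be told apart by the genes their neurons express, and 31 such marker genes were read in mice that model Down syndrome (DS) and in their littermates. The genes were taken from a named list, with 11 markers of the dentate gyrus, 7 of CA1, 9 of CA2 and CA3 and 4 of the subiculum, out of 19938 genes measured. Whole hippocampi of both sides came from male mice at 16 weeks of age, with 5 Dp5/Dp1 mice and 5 control littermates and 1 array per mouse. Dp5/Dp1 mice are compound heterozygotes that hold the Dp5Yah duplication and the Dp1Rhr duplication of mouse chromosome 16 (Mmu16), regions homologous to human chromosome 21, and so have 3 copies of the genes inside in every cell. The labels place all mice on C57BL/6N, while the methods of the study name C57BL/6J. The control arrays are marked as a reanalysis and served other lines of the same breeding too, which were not used here. The title of each mutant array opens with Dp5Yah and adds Dp5/Dp1 only as the model, so a gene of each duplication was read on every array. Ifnar2, inside Dp5Yah, ran from 9.33 to 9.45 in controls and from 9.94 to 10.17 in Dp5/Dp1, and Dyrk1a, inside Dp1Rhr, from 11.56 to 11.73 and from 11.89 to 12.00, so both separated the groups on all 10 arrays.

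Information enters the hippocampus through the granule cells of the dentate gyrus, whose mossy fibres contact the pyramidal cells of CA3. These project to CA1, and CA1 sends its output to the subiculum and from there to the cortex and other targets. CA2 is a small field between CA3 and CA1 with its own gene set, known for a role in social memory. Each field keeps its marker genes through adult life, so that their level in whole tissue depends both on how much of a field a sample holds and on how strongly its cells transcribe the gene. In whole tissue, fewer cells of a field and less RNA per cell cannot be told apart.

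All values are log2 expression after RMA, in which the arrays were corrected for background, brought to a common distribution and summarised to 1 value per probe set. A difference of 1 would be a doubling. Array medians lay between 6.73 and 6.80, and arrays correlated across genes at 0.996 up to 0.999, with no pair of arrays identical. All 31 markers had 1 probe set each, and a level is comparable between arrays for the same gene, but not between genes. Genes of excitatory neurons were read in both groups, with Camk2a at 13.53 ± 0.014 in controls and 13.50 ± 0.017 in Dp5/Dp1 and Slc17a7 at 12.50 ± 0.066 in controls and 12.49 ± 0.045 in Dp5/Dp1 (SD, n = 5). Other forebrain tissue expresses both too, so these levels do not tell the hippocampus from it. None of the 31 markers lay in a duplicated interval. Nectin3 was the 1 marker on chromosome 16 (chromosome 16, 46387665 to 46498535), and it lies far proximal to Dp5Yah (read here from the start of Cyyr1 at 85452858). Every marker thus had the same number of copies in both groups. Map3k15 lies on chromosome X, of which male mice hold 1 copy, and the other markers lie on autosomes, with 2 copies.

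The question was whether the fields of the hippocampus kept their marker levels when the DS-related intervals were present in 3 copies. No marker passed the test. limma called 0 of the 31 at an adjusted p under 0.05, against 0.206% of all 19938 genes, and the adjusted p of the markers ran from 0.662 to 0.991. At an unadjusted p under 0.05 there were 6 of 31 (19.4%), against 6.06% of all genes. Of these, Tdo2 and Rgs14 had the higher mean in Dp5/Dp1, and Npnt, Lct, Glis3 and St18 the lower. With the dimmest 40% of genes left out, 6 of 30 markers and 792 of 11963 genes had such a p by limma. The markers were chosen with earlier results of these data known, so these shares are not an independent comparison. FCROS, which ranks fold changes and was used by the study, passed 6 of the 31 as well, against 5.06% of all genes, with Tdo2, Rgs14 and Spink8 higher and Npnt, Lct and Dlk1 lower. For 0 of the 31 did the arrays of the groups fail to overlap, against 1.08% of all genes.

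The differences were small in both directions. The mean was higher in Dp5/Dp1 for 15 markers and lower for 16, with a median difference of -0.0070, against 0.0019 over all genes, 51.5% of which had the higher mean in Dp5/Dp1. Tdo2 alone differed by more than 0.2, and 11 markers by more than 0.1. Over all genes the 90th percentile of the size of the difference was 0.099 and the 95th was 0.13. Differences past 0.1 were thus more frequent among the markers than among all genes. The median size of the difference, without its sign, was 0.093 for the markers and 0.034 for all genes. The median SD within groups was larger for the markers too, at 0.11 against 0.070 for all genes. Only 1 of the 31 was among the dimmest 40% of all genes, where RMA compresses differences. The intervals show what the arrays could resolve. For all 31 markers the 95% interval of the difference stayed within 0.58 of 0, which is log2 of 1.5, and for 27 it stayed within 0.32. The other 4 were Dsp, Tdo2, Gpr161 and Dlk1, and the half-width of the interval ran from 0.083 to 0.27 over the markers.

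**Figure D1:**
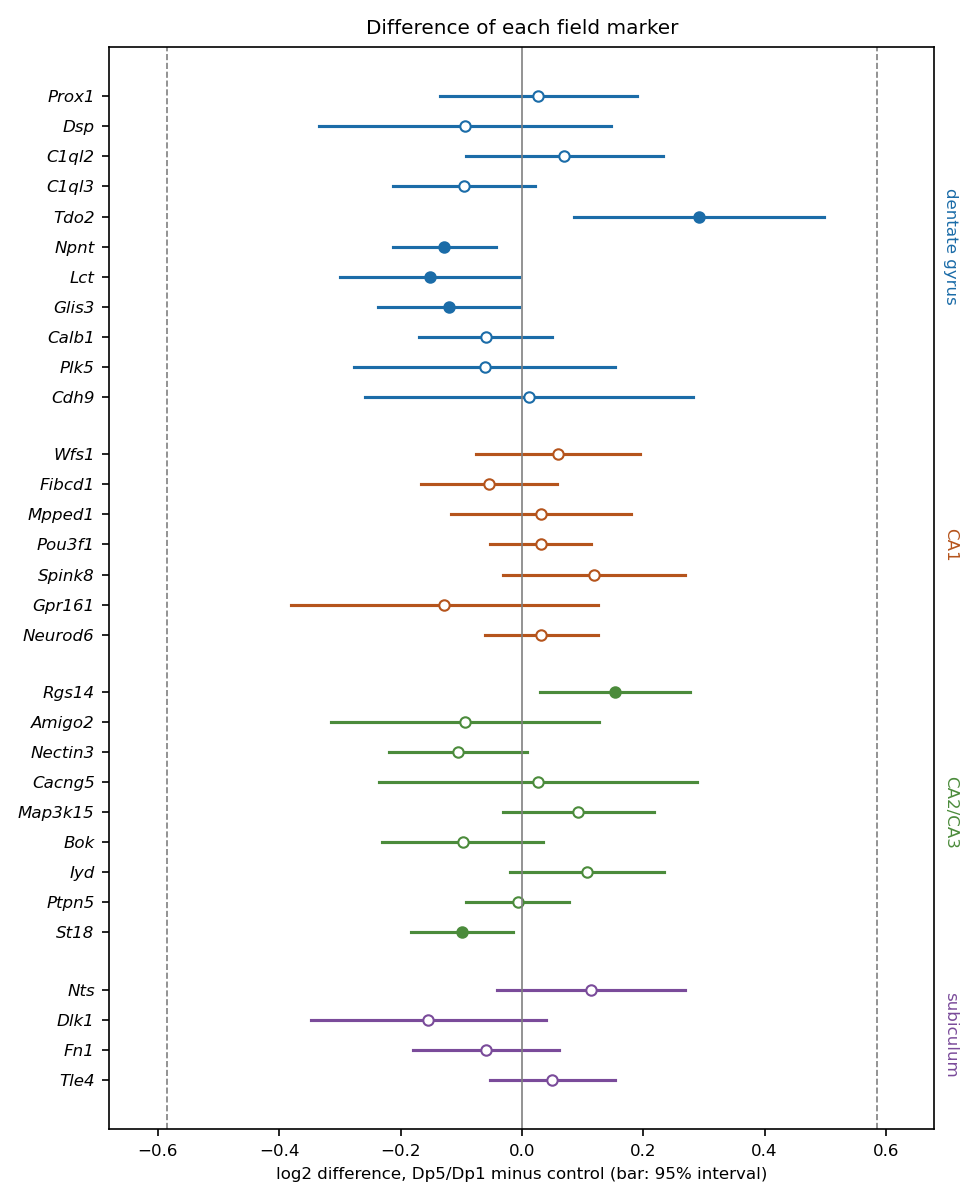
Difference in mean log2 expression (Dp5/Dp1 minus control) of the 31 markers, grouped and coloured by field; points give the difference, bars its 95% interval, filled points an unadjusted p under 0.05 and dashed lines log2 of 1.5. No bar reaches a dashed line, the 6 filled points lie on both sides of 0, and Tdo2 at 0.29 lies farthest out.

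Of the dentate gyrus markers, 4 had the higher and 7 the lower mean in Dp5/Dp1. The field held 4 of the 6 genes with an unadjusted p under 0.05 by limma. Tdo2 encodes tryptophan dioxygenase, the first enzyme of the kynurenine pathway (GRCm38 chromosome 3, 81958412 to 81975728). Its values in control replicates 1 to 5 were 6.94, 6.92, 6.93, 6.66 and 6.77, and in Dp5/Dp1 replicates 1 to 5 they were 7.44, 7.26, 7.06, 6.89 and 7.05. Replicates 1 and 2 of Dp5/Dp1 stood highest, control replicates 4 and 5 lowest, and only Dp5/Dp1 replicate 4 fell within the range of the controls. The difference was 0.29 ± 0.094 (SE; unadjusted p = 0.0095, adjusted p = 0.732).

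Npnt encodes nephronectin, a matrix protein bound by integrins (chromosome 3, 132881745 to 132950291). Controls read 9.16, 9.25, 9.23, 9.19 and 9.24, a narrow band, and Dp5/Dp1 arrays read 9.13, 9.07, 9.17, 8.97 and 9.11. Replicate 3 of Dp5/Dp1 lay just above the lowest control, and the other 4 lay below every control. The difference was -0.13 ± 0.039 (95% interval -0.21 to -0.043), with the lowest unadjusted p of the 31 markers at 0.00669 and an adjusted p of 0.662.

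Lct and Glis3 had lower means as well. Lct encodes lactase, an enzyme of the intestine whose transcript marks granule cells (chromosome 1, 128284756 to 128328318). Control values of Lct were 9.71, 9.49, 9.82, 9.69 and 9.73 and those of Dp5/Dp1 9.61, 9.54, 9.69, 9.37 and 9.48, so that replicates 4 and 5 of Dp5/Dp1 lay below every control while the other 3 lay among them (difference -0.15 ± 0.068, adjusted p = 0.818). Glis3, a zinc finger transcription factor (chromosome 19, 28258851 to 28680265), read 8.85, 8.79, 8.78, 8.91 and 8.90 in controls and 8.77, 8.77, 8.82, 8.52 and 8.73 in Dp5/Dp1. All Dp5/Dp1 arrays but replicate 3 lay below every control. Replicate 4 was again the lowest array, and without it the difference of Glis3 went from -0.12 ± 0.053 to -0.071 (adjusted p of the full comparison = 0.818).

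The differences of Prox1, C1ql2 and C1ql3 were smaller in size than those of Tdo2, Npnt, Lct and Glis3. Prox1, the homeobox factor that sets and holds granule cell identity (chromosome 1, 190118035 to 190170827), read 10.36, 10.10, 10.15, 10.34 and 10.46 in controls and 10.41, 10.26, 10.23, 10.19 and 10.45 in Dp5/Dp1. High and low arrays occurred in both groups, and the difference of 0.027 ± 0.074 (95% interval -0.14 to 0.19) turned its sign when control replicate 2 was left out (-0.018). C1ql2 and C1ql3 encode secreted C1q-like proteins that organise synapses, C1ql2 at mossy fibres. C1ql2 was at 9.88 ± 0.098 in controls and 9.95 ± 0.16 in Dp5/Dp1 (SD, n = 5), with replicate 1 of Dp5/Dp1 as its highest array at 10.22, and C1ql3 was at 11.22 ± 0.093 in controls and 11.13 ± 0.092 in Dp5/Dp1. Their differences had opposite signs, 0.070 ± 0.074 and -0.095 ± 0.054, and each was under 2 SE of 0. Without replicate 1 of Dp5/Dp1 the difference of C1ql2 was 0.0036.

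Calb1, the calcium buffer calbindin, which CA1 neurons and interneurons also express, ranged over 11.35 to 11.59 in controls and 11.35 to 11.53 in Dp5/Dp1 (difference -0.059 ± 0.050). Dsp, the desmosome protein desmoplakin, ranged more widely, over 8.69 to 9.29 in controls and 8.79 to 9.23 in Dp5/Dp1 (difference -0.094 ± 0.11). It was lowest on control replicate 2 and highest on control replicate 5. Plk5, a member of the polo-like kinase family, ranged over 8.43 to 8.78 in controls and 8.19 to 8.72 in Dp5/Dp1 and Cdh9, a cadherin of mossy fibre synapses, over 9.87 to 10.32 in controls and 9.70 to 10.32 in Dp5/Dp1. Both were lowest on replicate 5 of Dp5/Dp1, at 8.19 and 9.70, and their differences, -0.061 ± 0.098 and 0.012 ± 0.12, were smaller than their SE.

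**Figure D2:**
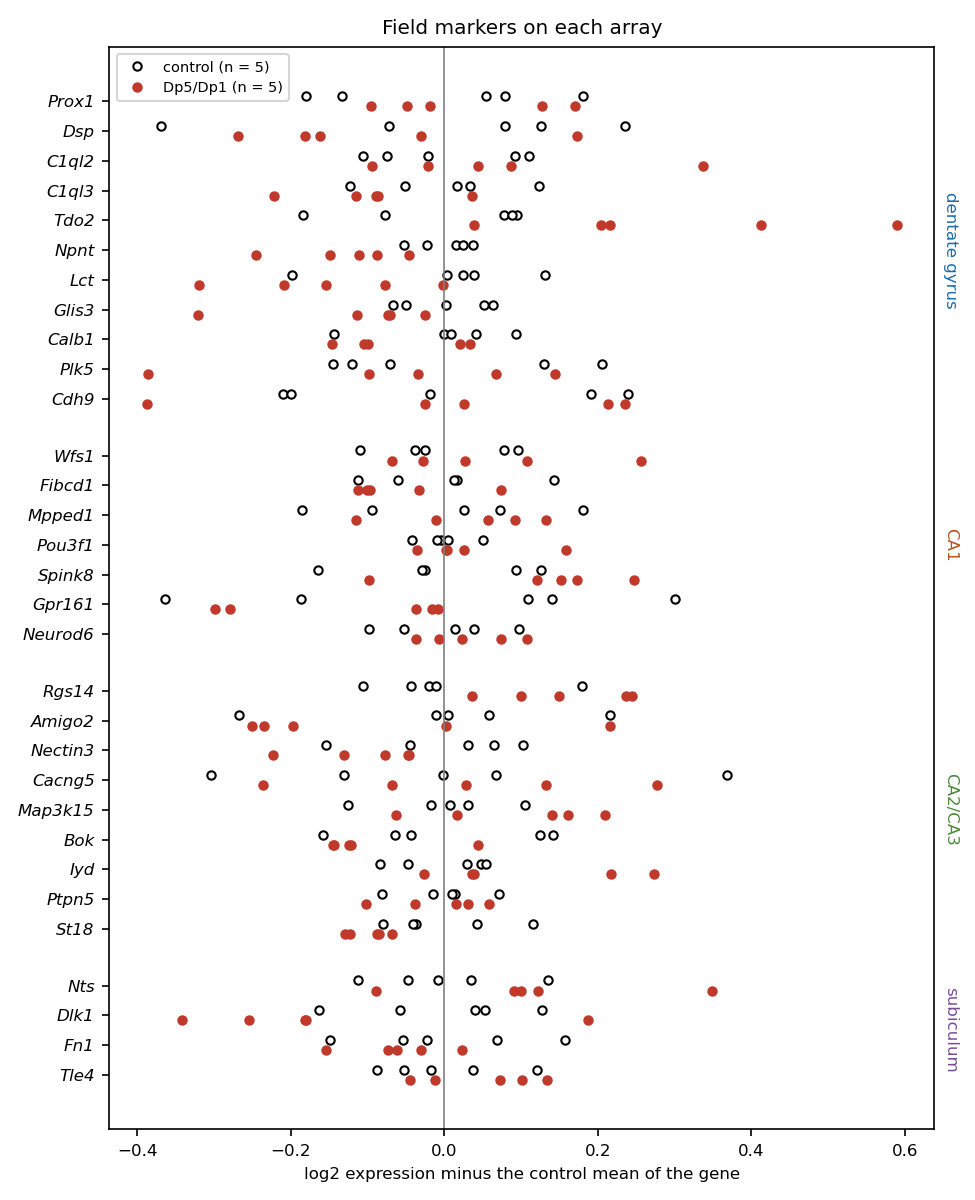
Log2 expression of each marker on each array, minus the control mean of that gene; open points are the 5 controls, red points the 5 Dp5/Dp1 arrays, and genes are grouped by field. The groups overlap for every marker, most narrowly for Npnt and St18, and Tdo2 has the widest range, with Dp5/Dp1 replicates 1 and 2 farthest to the right.

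In CA1 no marker had an unadjusted p under 0.05, and 5 of 7 had the higher mean in Dp5/Dp1. Wfs1, which encodes wolframin of the endoplasmic reticulum and fills CA1 pyramidal cells (chromosome 5, 36966104 to 36988982), read 10.70, 10.89, 10.90, 10.78 and 10.77 in controls and 11.06, 10.78, 10.92, 10.74 and 10.83 in Dp5/Dp1. Replicates 1 and 3 of Dp5/Dp1 lay above every control, the other 3 among them, and the difference was 0.059 ± 0.062 (95% interval -0.076 to 0.19). It was 0.0098 without replicate 1. Spink8, a Kazal-type protease inhibitor (chromosome 9, 109812203 to 109826628), was the only CA1 marker passed by FCROS.

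Spink8 values were 8.61, 8.47, 8.76, 8.73 and 8.60 in controls and 8.75, 8.54, 8.88, 8.79 and 8.81 in Dp5/Dp1. Replicates 3, 4 and 5 of Dp5/Dp1 stood above every control, replicate 2 of each group was the lowest of its group, and the difference was 0.12 ± 0.068 (adjusted p = 0.841). It was 0.078 without control replicate 2, and 0.19 with markers of neighbouring tissue (habenula and choroid plexus) in the model.

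Gpr161, a receptor of the primary cilium that restrains Hedgehog signalling, had the widest interval of the CA1 genes. It ranged over 8.77 to 9.43 in controls and 8.84 to 9.13 in Dp5/Dp1, lowest on control replicate 2 and highest on control replicate 3, and its difference was -0.13 ± 0.12. Without control replicate 2 it was -0.22, and without control replicate 3 -0.052. Fibcd1, a membrane receptor that binds chitin, was at 9.68 ± 0.096 in controls and 9.62 ± 0.078 in Dp5/Dp1 (difference -0.054 ± 0.051). The remaining 3 markers, Mpped1 (0.031 ± 0.068), a metallophosphoesterase, Pou3f1 (0.031 ± 0.038), a POU-domain factor, and Neurod6 (0.032 ± 0.043), a bHLH factor of pyramidal cells in general, had differences within 1 SE of 0. Pou3f1 and Neurod6 were among the steadiest markers, with SDs within groups of 0.058 and 0.068.

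Of the CA2 and CA3 markers, 4 had the higher and 5 the lower mean in Dp5/Dp1. Rgs14, a regulator of G-protein signalling that restrains plasticity in CA2 neurons (chromosome 13, 55369732 to 55384687), had the largest difference. Its values were 9.30, 9.27, 9.50, 9.21 and 9.31 in controls and 9.56, 9.35, 9.55, 9.42 and 9.47 in Dp5/Dp1. Replicates 1 and 3 of Dp5/Dp1 lay above every control and all 5 above the control mean, while control replicate 3 reached into their range. The difference was 0.15 ± 0.057 (95% interval 0.030 to 0.28, unadjusted p = 0.0194, adjusted p = 0.806).

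The other CA2 markers had differences of either sign, each under 2 SE of 0. Amigo2, a leucine-rich adhesion protein, ranged over 8.02 to 8.50 in controls and 8.04 to 8.50 in Dp5/Dp1 (difference -0.093 ± 0.10), and Cacng5, an auxiliary subunit of AMPA receptors, over 8.01 to 8.68 in controls and 8.08 to 8.59 in Dp5/Dp1 (difference 0.027 ± 0.12). Control replicate 4 and Dp5/Dp1 replicate 5 were the highest arrays of their groups for both genes. Ptpn5, the neuronal phosphatase STEP, had the smallest difference in size of all 31 markers, -0.0070 ± 0.039, and Map3k15, a kinase whose probe set was the dimmest of the 31 and the only one among the dimmest 40% of all genes, was at 6.36 ± 0.084 in controls and 6.46 ± 0.11 in Dp5/Dp1 (difference 0.093 ± 0.057).

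St18, a zinc finger factor that oligodendrocytes also express (chromosome 1, 6487231 to 6860940), was the other gene of these fields with an unadjusted p under 0.05. Controls read 8.98, 8.86, 9.05, 8.90 and 8.90 and Dp5/Dp1 arrays 8.85, 8.87, 8.85, 8.81 and 8.82. The Dp5/Dp1 values spanned less than the controls, with 4 of the 5 below every control, and the difference was -0.099 ± 0.038 (unadjusted p = 0.0244, adjusted p = 0.806). Of the remaining markers, Nectin3, an adhesion protein, was at -0.10 ± 0.052, Bok, a BCL2 family member, at -0.098 ± 0.061, and Iyd, an iodotyrosine deiodinase, at 0.11 ± 0.058 as differences. For Bok, Dp5/Dp1 replicate 5 stood at 9.76, well above the other 4 Dp5/Dp1 arrays, and within the range of the controls. None of these genes passed, with adjusted p of 0.828, 0.845 and 0.832 by limma.

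The subiculum was read through 4 genes, of which 2 had the higher and 2 the lower mean. Dlk1, an imprinted member of the Delta-Notch family (chromosome 12, 109452485 to 109463336), read 8.31, 8.20, 8.49, 8.42 and 8.40 in controls and 8.02, 8.18, 8.18, 8.11 and 8.55 in Dp5/Dp1. Replicates 1 to 4 of Dp5/Dp1 lay below every control, while replicate 5 lay above every control. The difference was -0.15 ± 0.089 (adjusted p = 0.841) and -0.24 without replicate 5. Nts, which encodes neurotensin (chromosome 10, 102481756 to 102490418), read 7.14, 7.25, 7.29, 7.21 and 7.39 in controls and 7.36, 7.38, 7.61, 7.17 and 7.35 in Dp5/Dp1, with replicate 3 highest (difference 0.11 ± 0.071, and 0.056 without that array). Fn1, fibronectin, which blood vessels also make, was at -0.059 ± 0.055, and Tle4, a Groucho corepressor that deep cortical layers also express, at 0.050 ± 0.047. Nts, Fn1 and Tle4 had adjusted p of 0.845, 0.892 and 0.892 by limma.

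Averaged over its genes, no field separated the groups. The dentate gyrus mean was 9.56 ± 0.051 in controls and 9.54 ± 0.068 in Dp5/Dp1 (difference -0.028 ± 0.038 SE), the CA1 mean 9.96 ± 0.074 in controls and 9.97 ± 0.068 in Dp5/Dp1 (0.013 ± 0.045), the CA2/CA3 mean 8.61 ± 0.066 in controls and 8.61 ± 0.049 in Dp5/Dp1 (-0.0022 ± 0.037) and the subiculum mean 8.88 ± 0.030 in controls and 8.87 ± 0.080 in Dp5/Dp1 (-0.012 ± 0.038). Each difference was smaller than its SE, and smaller than the SD between mice of either group. The dentate gyrus mean took in Tdo2 at 0.29, while the median of the differences of its 11 markers was -0.061.

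The dentate gyrus mean was highest on replicate 1 of Dp5/Dp1 and lowest on replicate 4, with values of 9.59, 9.50, 9.60, 9.52 and 9.61 in controls and 9.63, 9.55, 9.55, 9.44 and 9.51 in Dp5/Dp1. For CA1 the values were 9.89, 9.91, 10.08, 9.96 and 9.95 in controls and 9.99, 9.88, 10.07, 9.97 and 9.95 in Dp5/Dp1, with replicate 3 the highest of each group. CA2/CA3 values were 8.63, 8.50, 8.62, 8.69 and 8.60 in controls and 8.60, 8.59, 8.61, 8.55 and 8.68 in Dp5/Dp1. Here control replicate 4 and Dp5/Dp1 replicate 5 led, as they did for Amigo2 and Cacng5. Subiculum values were 8.85, 8.87, 8.92, 8.91 and 8.87 in controls and 8.81, 8.88, 8.94, 8.77 and 8.96 in Dp5/Dp1, more spread in the latter.

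The balance between fields was compared within each array by subtracting 1 field mean from another. The dentate gyrus minus CA1 went from -0.40 ± 0.070 in controls to -0.44 ± 0.089 in Dp5/Dp1, a shift of -0.041 ± 0.051 (SE). The shift was -0.026 ± 0.046 for the dentate gyrus minus CA2/CA3, and 0.015 ± 0.054 for CA1 minus CA2/CA3. Against the subiculum it was -0.016 ± 0.051 for the dentate gyrus, 0.025 ± 0.049 for CA1 and 0.0099 ± 0.033 for CA2/CA3. All 6 shifts were smaller than their SE.

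**Figure D3:**
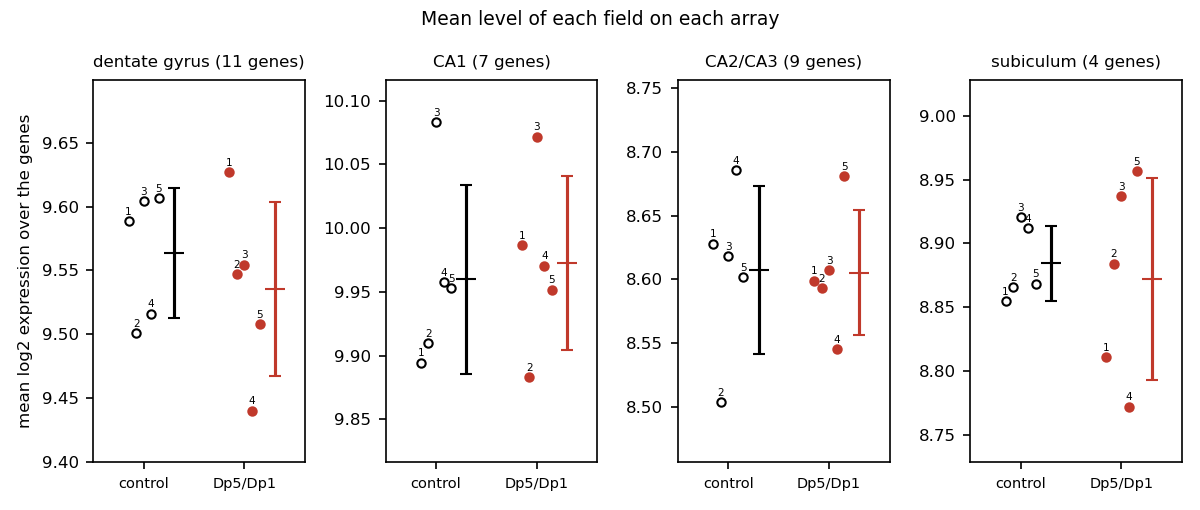
Mean log2 expression over the markers of each field on each array; open points are controls, red points Dp5/Dp1, small digits the replicate numbers, and bars the group mean and SD (n = 5). Each panel has its own starting level with an equal span of the axis, and the points of the groups overlap in every field.

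The markers varied more between mice than most genes did. Their median SD within groups was 0.11, against 0.070 for all genes, 19 of the 31 had an SD above the 75th percentile of all genes and 10 above the 90th. Among the 1000 genes nearest in level to each marker, the median percentile was 78.5. The least steady were Cdh9 (SD 0.23), Cacng5 (0.22), Gpr161 (0.22) and Dsp (0.21), and the steadiest Pou3f1 (0.058), St18 (0.058), Npnt (0.059) and Ptpn5 (0.060). From lowest to highest array, single markers spanned between 0.17 for Ptpn5 and 0.77 for Tdo2.

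Some arrays were the highest or the lowest for several markers. Control replicate 4 and Dp5/Dp1 replicate 1 were each the highest array for 6 markers, and control replicate 2 was the lowest for 8. Dp5/Dp1 replicate 4 was the lowest array for 4 markers and the highest for 0. These 4 were Npnt, Lct, Glis3 and St18, the markers with a lower mean and an unadjusted p under 0.05. Without that array, 5 markers had such a p by limma, 4 of them higher in Dp5/Dp1. With all arrays there were 6, of which 2 were higher. Of the 6 markers highest on control replicate 4, 4 belonged to CA2/CA3 (Amigo2, Cacng5, Bok and Ptpn5), and on control replicate 3 the 3 CA1 markers Fibcd1, Mpped1 and Gpr161 were highest.

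With differences this small, single arrays weighed on most markers. Leaving out 1 array moved the difference by over 1.5 times, or turned its sign, for 25 of the 31. The 6 markers that no array moved so far were Tdo2, Npnt, Lct, Rgs14, Nectin3 and St18. Over the arrays left out, the difference in the dentate gyrus ran from -0.19 to -0.035 for Dsp, -0.13 to -0.063 for C1ql3 and -0.095 to -0.036 for Calb1. In CA1 it ran from -0.086 to -0.018 for Fibcd1 and 0.0075 to 0.056 for Neurod6. Among the CA2/CA3 markers the range was -0.17 to -0.039 for Amigo2, 0.062 to 0.13 for Map3k15, -0.14 to -0.062 for Bok and 0.066 to 0.14 for Iyd, and in the subiculum -0.096 to -0.020 for Fn1 and 0.028 to 0.080 for Tle4. The sign of these 11 did not turn.

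Markers of tissue next to the hippocampus also differed between arrays. The mean over 11 choroid plexus genes ran from 6.87 to 9.02 in controls and from 6.98 to 8.64 in Dp5/Dp1, led by control replicates 1, 4 and 5 and Dp5/Dp1 replicates 3 and 5. All 11 had the lower mean in Dp5/Dp1, with Kl at -0.43 ± 0.34 and Cldn2 at -0.28 ± 0.23. The mean over 8 medial habenula genes ran from 7.01 to 7.41 and from 7.09 to 8.12, with Dp5/Dp1 replicates 2 at 8.12 and 5 at 7.65 the highest. All 8 had the higher mean in Dp5/Dp1, among them Tac2 (0.92 ± 0.40) and Lrrc55 (0.39 ± 0.19).

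The 8 thalamus genes ran from 7.68 to 8.47 in controls and from 7.42 to 8.04 in Dp5/Dp1, all with the lower mean in Dp5/Dp1 (Synpo2 -0.37 ± 0.17, Plekhg1 -0.23 ± 0.13). The 8 neocortex genes ran from 8.68 to 9.01 and from 8.71 to 8.96 (6 higher and 2 lower, Rorb -0.098 ± 0.049, Tbr1 0.15 ± 0.081), and the 5 striatum genes from 7.52 to 7.58 and from 7.52 to 7.59 (Drd1 0.10 ± 0.055, Ppp1r1b -0.11 ± 0.061). limma called 0 genes of these 5 lists (0.206% of all genes), and 2 had an unadjusted p under 0.05 (6.06% of all genes). Dp5/Dp1 replicate 5, on which Dlk1 and Bok were highest and Plk5 and Cdh9 lowest of the Dp5/Dp1 arrays, was thus high in both choroid plexus and habenula genes.

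The list means of both were added to the fit. Their own group means differed, by 0.33 for the habenula and -0.37 for the choroid plexus. Such a fit on 10 arrays therefore cannot fully part neighbouring tissue from genotype. With the list means of the habenula and the choroid plexus in the model, limma again called 0 of the 31 field markers, and Tdo2 was at 0.22, Npnt at -0.13, Lct at -0.15 and Rgs14 at 0.16. For 12 of the 31 the difference moved by over 1.5 times or turned its sign. It came nearer to 0 for 6 of these, at -0.0063 for Dsp, -0.054 for C1ql3, 0.013 for Mpped1, -0.055 for Bok, 0.069 for Iyd and 0.0034 for Tle4. It grew for 5, at 0.070 for Prox1, -0.12 for Plk5, 0.048 for Pou3f1, 0.19 for Spink8 and 0.092 for Cacng5, and for Cdh9 it turned to -0.082. Without replicates 2 and 5 of Dp5/Dp1, which were high in habenula genes, 0 were called too, and Tdo2 was at 0.28, Npnt at -0.13, Rgs14 at 0.19 and Dlk1 at -0.26. The part of thalamus in the marker levels was not tested.

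**Figure D4:**
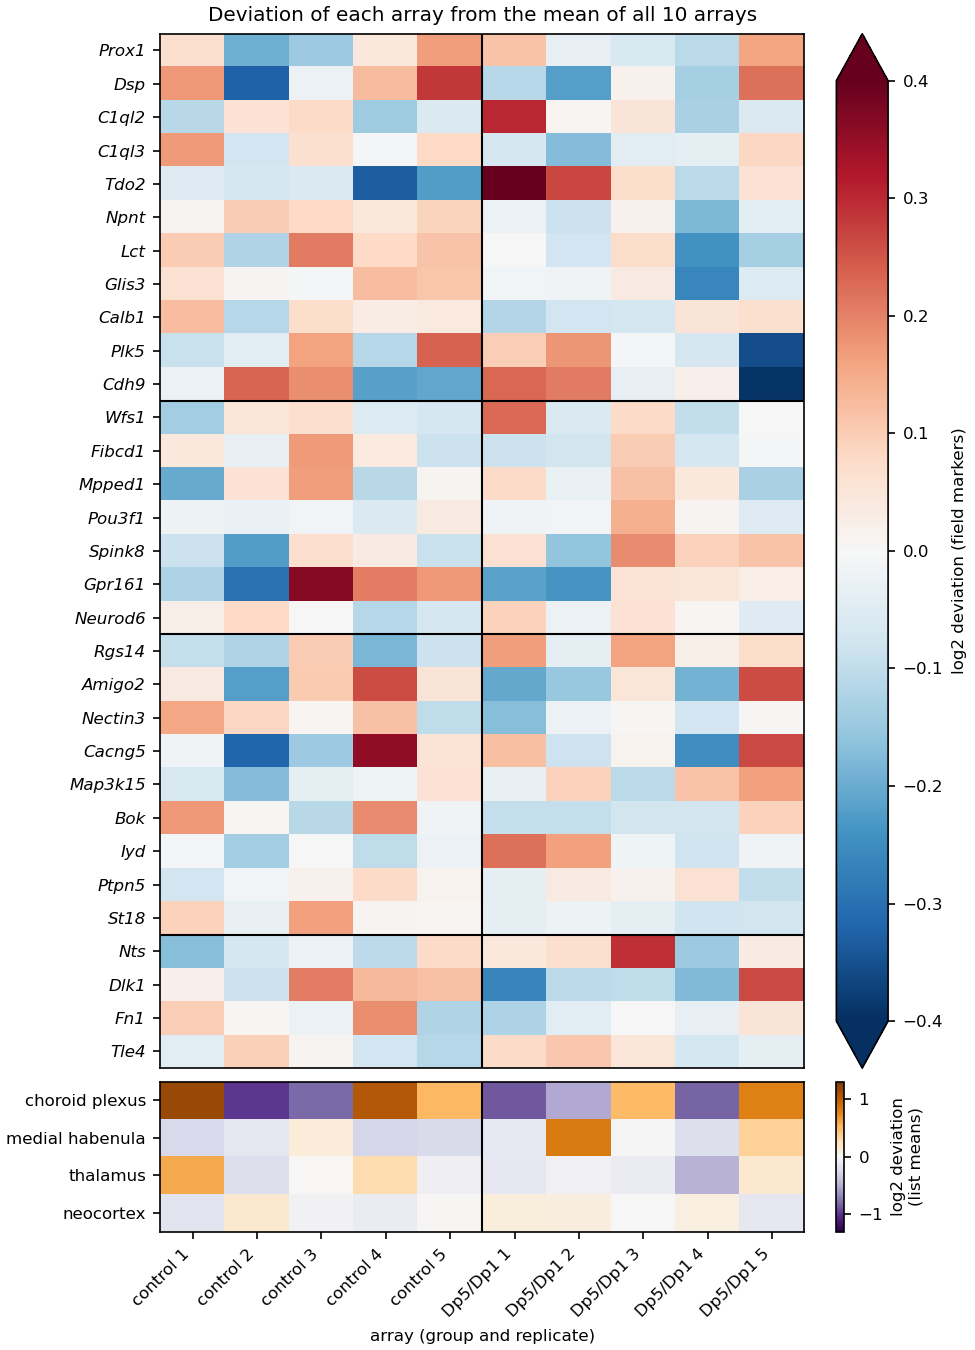
Deviation of each array from the mean of all 10 arrays for the 31 markers (upper block, rows grouped by field) and for the means of 4 lists of neighbouring tissue (lower block, wider colour scale); columns are arrays, controls left of the line. Rows of 1 field do not share a single pattern, and the choroid plexus row is high on control replicates 1, 4 and 5 and Dp5/Dp1 replicates 3 and 5.

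Other genes of the same fields were read from 8 lists. Of 58 measured genes limma called 0 (0.206% of all genes), and 5 had an unadjusted p under 0.05 (6.06% of all genes), namely Ajap1, Pcp4, Srl, Nr2f2 and Cpne7. The mean was higher in Dp5/Dp1 for 18 and lower for 40. Other granule cell genes (10 measured, 4 higher and 6 lower) had a median difference of -0.018, with Maml2, a Notch coactivator, at -0.15 ± 0.076 and Stxbp6, a syntaxin-binding protein, at 0.10 ± 0.062. Genes of adult neurogenesis, the birth of new granule cells, had a median of -0.033 (9 measured, 2 higher and 7 lower), with Igfbpl1 at -0.13 ± 0.082 and Top2a, a topoisomerase of dividing cells, at -0.048 ± 0.034. Of these 9, 4 were among the dimmest 40% of all genes, where RMA compresses differences.

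Mossy cells are the excitatory neurons of the dentate hilus. Of 6 genes read for them 2 were higher and 4 lower, and Ajap1, an adherens junction protein, was at -0.14 ± 0.046 (adjusted p = 0.746), with Drd2, a dopamine receptor, at -0.16 ± 0.077 (adjusted p = 0.824). Other CA1 genes (5 measured, 1 higher and 4 lower) included Man1a, a mannosidase, at -0.062 ± 0.047 and Lefty1, a TGF-beta family inhibitor, at -0.11 ± 0.083. Other CA3 genes (9 measured, 2 higher and 7 lower) included Socs2, a cytokine signalling suppressor, at -0.11 ± 0.067 and Coch, the matrix protein cochlin, at -0.37 ± 0.22, whose highest arrays were control replicates 1 at 8.29 and 4 at 8.03. Other subiculum genes (5 measured, 2 higher and 3 lower) included Rxfp1, a relaxin receptor, at 0.14 ± 0.16 and Gpr101 at -0.058 ± 0.057.

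Other CA2 genes lay mostly higher, 5 of 6, with a median difference of 0.10. Their list mean was highest on Dp5/Dp1 replicates 2 (8.91) and 5 (8.89), the arrays that were highest in habenula genes. The part of habenula in this list was not tested. Pcp4, a calmodulin-binding protein used as a CA2 marker, is the 1 gene of these lists inside a duplicated interval (Dp1Rhr), and so has 3 copies in Dp5/Dp1. It read 12.20, 12.13, 12.14, 12.16 and 12.11 in controls and 12.21, 12.33, 12.23, 12.20 and 12.29 in Dp5/Dp1, with the lowest Dp5/Dp1 array just inside the range of the controls. The difference was 0.10 ± 0.034 (95% interval 0.029 to 0.18, adjusted p = 0.74). Srl, sarcalumenin, which lies on chromosome 16 outside the duplications, was at 0.14 ± 0.062 (adjusted p = 0.814).

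Genes of the ventral pole, the temporal end of the hippocampus, had the lower mean in Dp5/Dp1 in 8 of 8 cases, with a median difference of -0.092, against 0.0019 over all genes. Nr2f2, the nuclear receptor COUP-TFII, ranged over 7.86 to 8.32 in controls and 7.85 to 8.03 in Dp5/Dp1, so that control replicate 5 lay among the Dp5/Dp1 arrays and the other 4 controls above them all (difference -0.18 ± 0.073, adjusted p = 0.806). Cpne7, a copine, was at -0.26 ± 0.12 (adjusted p = 0.823). The list mean was 8.28 to 8.62 in controls and 8.16 to 8.43 in Dp5/Dp1, so the groups overlapped. Choroid plexus also expresses Htr2c of this list, and meninges Dcn, and their part in the result was not tested.

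General and non-neuronal genes gave no call either, against 0.206% of all genes. The excitatory neuron genes (5 measured, 1 higher and 4 lower) included Zbtb20, a factor of hippocampal pyramidal and granule cells, at -0.12 ± 0.058 and Camk2a at -0.033 ± 0.025. Oligodendrocyte genes (7 measured, 4 higher and 3 lower) ranged over list means of 10.94 to 11.09 in controls and 10.93 to 11.23 in Dp5/Dp1, with Opalin at 0.32 ± 0.18 and Ermn at -0.14 ± 0.073, while St18 had a difference of -0.099. Vessel and meningeal genes (8 measured, 4 higher and 4 lower) included Cldn5, the claudin of brain endothelium, at 0.25 ± 0.068 (unadjusted p = 0.00281, adjusted p = 0.491) and Flt1 at -0.076 ± 0.048, while Fn1 had a difference of -0.059. The part of these cells in the marker levels was not tested.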

How the data were processed

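RNA of whole hippocampi was hybridised to Affymetrix Mouse Gene ST arrays, 1 per mouse, and the authors deposited log2 expression values after RMA, which shrinks differences of dim probe sets. The submitters' processing notes name mm10.

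Of 35556 probe sets, 21789 carried a single gene symbol, 1621 carried several and 12146 carried none in the annotation used. The brightest probe set stood for a gene, which left 19938 genes. Positions came from the RefSeq table of GRCm38, the assembly of mm10, through the Entrez ID. Groups came from the condition label, and the labels number the mice as biological replicates. limma 3.58.1 (R 4.3.3; lmFit, eBayes, no covariate, 2-sided) tested all genes with Benjamini-Hochberg adjustment, and called means an adjusted p under 0.05. FCROS was rewritten from its description (25 array pairs, ranks trimmed by 0.25 at each end, tails of 0.025) and may differ from the package. SDs within groups were pooled over both groups, and the number of arrays limits the precision. Both tests were run on simulated data with independent noise for each gene. Those data held no tissue variation shared between genes, so they do not show how the tests behave under it.

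Markers and lists were chosen with earlier results of these data known, so lists are given by counts and medians, and field means carry no p. All markers are named, and of each other list the called genes or, with none, those 2 with the lowest unadjusted p. Slc17a7, Dcn and Htr2c were named after their values were seen. Further genes of the lists were not analysed here. Alternatives covered the filter on dim genes (40%), another quantile step, centring, the choice of probe set, the variance model, weights for arrays, a replicate block, left-out arrays, list means in the model, FCROS, the threshold (0.1) and the summary of a field.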

Additional observations from a re-analysis of the deposited data

Results flagged for a closer look

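Of 70 groups of 5 values (31 markers and 4 field means in each genotype), 1 held a value set apart from the other 4 by more than 0.71 of the range of the group, where chance would give about 1 in 20. Bok on Dp5/Dp1 replicate 5 stood at 9.76, while the other Dp5/Dp1 arrays lay between 9.57 and 9.59. The controls ranged from 9.55 to 9.85.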

How the results depend on the processing

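In every alternative with limma, 0 of the 31 markers were called, and the lowest adjusted p of any was 0.23, while FCROS passed 6. Calls over all genes went from 41 to 26 with the replicate block, 21 without Dp5/Dp1 replicates 2 and 5, 26 with list means of the habenula and the choroid plexus in the model and 1008 by FCROS. Same-numbered arrays of the groups had correlations of deviations from -0.35 to 0.29, and 1 of 5 controls correlated best with its own number. The replicate numbers were not taken as pairs, but so few arrays cannot exclude a shared litter or batch. The replicate block called 0 markers. With it 7 markers had an unadjusted p under 0.05 by limma, against 6 without it. Of 588 comparisons of a marker with an alternative, 565 kept the sign and the call. The sign turned in 23, spread over 7 markers, each with a difference under 0.1. Array weights gave -0.0087 for Prox1 and -0.014 for Cacng5, leaving out Dp5/Dp1 replicates 2 and 5 gave -0.0058 for Prox1, -0.025 for Cacng5 and 0.012 for Ptpn5, renewed quantile normalization gave 0.0021 for Ptpn5, and the list means in the model gave -0.082 for Cdh9. When 1 array was left out, Prox1 ran from -0.018 to 0.072, Plk5 from -0.11 to 0.020, Cdh9 from -0.044 to 0.11, Mpped1 from -0.015 to 0.077, Pou3f1 from -0.0011 to 0.047, Cacng5 from -0.049 to 0.12 and Ptpn5 from -0.027 to 0.017. Field means moved by less than the SD between mice in 74 of 76 alternatives. The exceptions took the median over the markers, which reads the gene in the middle by level, and gave -0.15 for the dentate gyrus and -0.099 for CA2/CA3. Arrays resolve dim probe sets poorly, which touches Map3k15 most.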
